A study of Homo sapiens with 4 samples.

Results

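The vascular endothelial growth factor (VEGF) genes were examined in H1 cells, an established human embryonic stem cell line, at day 2 of differentiation toward blood. The set was defined by gene name and holds 10 genes of the 58365 rows in the table: the receptors KDR, FLT1 and FLT4, the angiopoietin receptor TEK, the co-receptors NRP1 and NRP2, and the ligands VEGFA, VEGFB, VEGFC and PGF. All 10 were found, each in a single row. The study asked whether mesenchymal gene expression and mesoderm induction depend on Wnt signaling. H1 cells received 40 ng/ml activin A and 50 ng/ml BMP4 for 2 days, either with IWP2 or without it, and the controls are named for DMSO, the usual solvent for such compounds. IWP2 is a small molecule that blocks Porcupine, the enzyme that attaches the lipid Wnt proteins need for secretion. Each group holds 2 libraries of bulk RNA from this 1 cell line, and the concentration of IWP2 is not given in the sources used here. The protocol adds VEGF protein only after this stage. Nothing in the labels says whether the libraries of a group came from separate cultures, so p-values measure only the spread between these libraries.

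VEGF ligands are secreted dimers that bind receptor tyrosine kinases on the cell surface. KDR (VEGFR2, FLK1) transmits most of the VEGFA signal and marks the mesoderm from which blood and endothelium arise, FLT1 (VEGFR1) binds VEGFA tightly but signals weakly, and FLT4 (VEGFR3) responds to VEGFC. Neuropilins have a short intracellular part with no kinase domain. They present VEGF to KDR and also serve, with plexins, as receptors for class 3 semaphorins.

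Values were in FPKM, fragment numbers scaled to gene length and library size, so that levels of different genes can be set side by side. A gene was tested if its mean FPKM over the 4 libraries was at least 0.5. A gene was called when its Benjamini-Hochberg adjusted p in limma, taken over the 15980 genes tested, was under 0.05, and log2 differences are IWP2 minus DMSO on the log2(FPKM + 1) scale, which understates the change of weakly expressed genes. Of the 10 genes, 9 were tested and VEGFC was not. IWP2 lowered 5 of the 9, NRP1, NRP2, PGF, TEK and KDR, against 7.35% of all genes tested that were called lower and 13.2% called in either direction. By limma 0 of the 9 were called higher, also at an unadjusted p under 0.05, at which 6 were lower. The median log2 difference was -0.60 over the 9 genes and -0.01 over all genes tested. In 7 of the 10 genes every IWP2 value lay under both DMSO values, a pattern found in 31% of the genes tested. Leaving out any 1 of the 4 libraries left the calls of NRP1 and NRP2 and ended the other 3. Far fewer of all genes tested were called in those fits as well.

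The DMSO libraries expressed mesoderm and endoderm genes strongly and the endothelial genes PECAM1 and CDH5 hardly at all. All 8 mesoderm markers examined (T, MIXL1, MESP1, EOMES, APLNR, HAND1, PDGFRA and TBX6) were called lower with IWP2, and their summed level was 1115 and 1419 FPKM in the DMSO libraries and at most 172.4 FPKM in the IWP2 libraries. Of 8 Wnt response genes 6 were lower, by unequal amounts. SP5 fell from 53.2 and 47.1 FPKM to 0.379 and 0.363 FPKM, and AXIN2 from 14.15 and 15.24 FPKM to 6.45 and 5.58 FPKM. RNF43 and ZNRF3 were not called, and ZNRF3 was at 5.66 and 5.98 FPKM with DMSO and 7.05 and 6.49 FPKM with IWP2. Of 5 endoderm markers 4 were lower. The endoderm list summed to 1794 and 2189 FPKM with DMSO, mostly through CER1, and to 118.9 and 130.2 FPKM with IWP2. SOX17, the endoderm marker not called, was at 154.7 and 104.2 FPKM with DMSO and 79.7 and 94.9 FPKM with IWP2. Of 7 pluripotency markers 4 were higher. The endothelial list summed to 31.8 and 34.2 FPKM in DMSO and 23.9 and 26.4 FPKM in IWP2, mostly through EGFL7. PECAM1 and CDH5 stayed under 0.5 FPKM in every library, whereas CD34 was at 5.43 and 2.04 FPKM with DMSO and 1.81 and 1.79 FPKM with IWP2. TIE1 was at 2.56 and 1.09 FPKM with DMSO and 0.708 and 0.988 FPKM with IWP2. Of 10 endothelial markers 6 were tested and only VWF was called, lower. Blood markers were low and summed to 3.54 and 3.76 FPKM with DMSO and to 0.502 and 0.581 FPKM with IWP2, and RUNX1, the only one of 7 tested, was called lower (limma adjusted p = 0.00942). Of 3 neural markers OTX2 was lower, with means of 58.5 and 2.57 FPKM, and of 5 fibroblast or smooth muscle markers TAGLN was higher (limma adjusted p = 0.0135). These shifts move with the VEGF genes, and their part in the differences below was not tested. In bulk RNA, fewer cells of a type and less RNA per cell cannot be told apart.

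The neuropilins changed most. NRP1 (chr10:33177492-33336262, GRCh38) stood at 15.0 and 14.5 FPKM in the DMSO libraries and at 1.34 and 0.946 FPKM in the IWP2 libraries. The groups were far apart, and the mean with DMSO, 14.7 ± 0.380 FPKM (SD, n = 2), was 12.9 times the mean with IWP2, 1.14 ± 0.278 FPKM (SD, n = 2). The log2 difference of NRP1 was -2.88 (SE 0.148, 95% interval -3.26 to -2.50, limma adjusted p = 0.00103). Ordered from the lowest log2 difference, NRP1 ranked 94 of the 15980 genes tested.

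NRP2 (chr2:205681990-205798133), which prefers other semaphorins than NRP1 and also binds VEGFC, was the most abundant of the 10 genes with DMSO. It was measured at 65.4 and 72.1 FPKM with DMSO and at 16.1 and 13.8 FPKM with IWP2. Its DMSO mean of 68.7 ± 4.71 FPKM was 4.61 times its IWP2 mean of 14.9 ± 1.60 FPKM (SD, n = 2 each). The log2 difference of NRP2 was -2.13 (SE 0.112, 95% interval -2.42 to -1.85, limma adjusted p = 0.00106), rank 174 of the genes tested. Together the 2 neuropilins summed to 80.4 and 86.5 FPKM with DMSO and to 17.4 and 14.7 FPKM with IWP2.

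**Figure D1:**
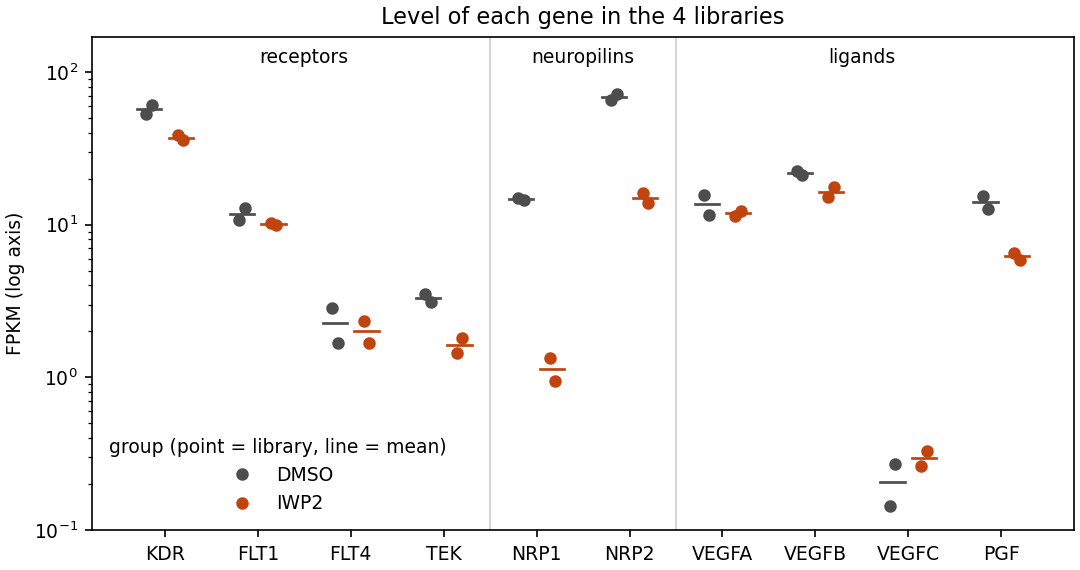
Level of each of the 10 genes in FPKM (log axis), with a point for each library, a line at the group mean, DMSO in grey and IWP2 in orange, ordered as receptors, neuropilins and ligands. NRP1 falls from about the level of VEGFA to below that of TEK, NRP2 falls from 68.7 to 14.9 FPKM, and VEGFC lies under 0.5 FPKM in every library.

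Among the receptors, KDR (chr4:55078477-55125589) was by far the most abundant, and it fell with IWP2 without being lost. KDR stood at 53.2 and 60.4 FPKM with DMSO and at 38.6 and 35.7 FPKM with IWP2. The groups did not overlap, and the means were 56.8 ± 5.05 and 37.1 ± 2.09 FPKM (SD, n = 2 each), a ratio of 1.53. The log2 difference of KDR was -0.60 (SE 0.101, 95% interval -0.86 to -0.34, limma adjusted p = 0.0237). Without DMSO library 1, DMSO library 2, IWP2 library 1 or IWP2 library 2, the log2 difference of KDR was -0.69, -0.51, -0.65 or -0.54. KDR was called in none of these 4 fits, in which far fewer of all genes tested were called. The call was also lost without a filter (limma adjusted p = 0.0912) and without a mean-variance trend (0.0524), so that KDR passed in 6 of 12 alternative fits. KDR was the highest of the 10 genes with IWP2 and second to NRP2 with DMSO.

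FLT1 (chr13:28300344-28495145), which can hold VEGFA away from KDR, was measured at 10.7 and 12.9 FPKM with DMSO and at 10.2 and 10 FPKM with IWP2. Both IWP2 values lay under both DMSO values, but by less than the DMSO libraries differed from each other. For FLT1 the log2 difference was -0.20 (95% interval -0.53 to 0.13, limma adjusted p = 0.373). The gene table does not separate the full receptor from the shorter secreted form that FLT1 also encodes.

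FLT4 (chr5:180601506-180649624), the VEGFC receptor of lymphatic endothelium, was low in both groups. It was measured at 2.85 and 1.69 FPKM with DMSO and at 2.33 and 1.68 FPKM with IWP2, and the groups overlapped. Its log2 difference was -0.11 with a wide 95% interval of -0.72 to 0.50 (limma adjusted p = 0.810), and its sign turned when DMSO library 1 (0.15) or IWP2 library 2 (0.05) was left out.

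TEK (chr9:27109141-27230175), better known as TIE2, is the receptor for the angiopoietins rather than for VEGF. It stood at 3.53 and 3.14 FPKM with DMSO and at 1.44 and 1.82 FPKM with IWP2, with no overlap and a ratio of means of 2.05. The log2 difference of TEK was -0.72 (SE 0.161, 95% interval -1.14 to -0.31, limma adjusted p = 0.0479), barely past the threshold. Without DMSO library 1, DMSO library 2, IWP2 library 1 or IWP2 library 2, its limma adjusted p was 0.157, 0.136, 0.244 or 0.186. The call was also lost without a filter (limma adjusted p = 0.150), with a minimum mean of 2 FPKM (0.0565), with a scaling by the median of ratios (0.0506) and with a replicate block (0.0763), so that TEK passed in 4 of 12 alternative fits.

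**Figure D2:**
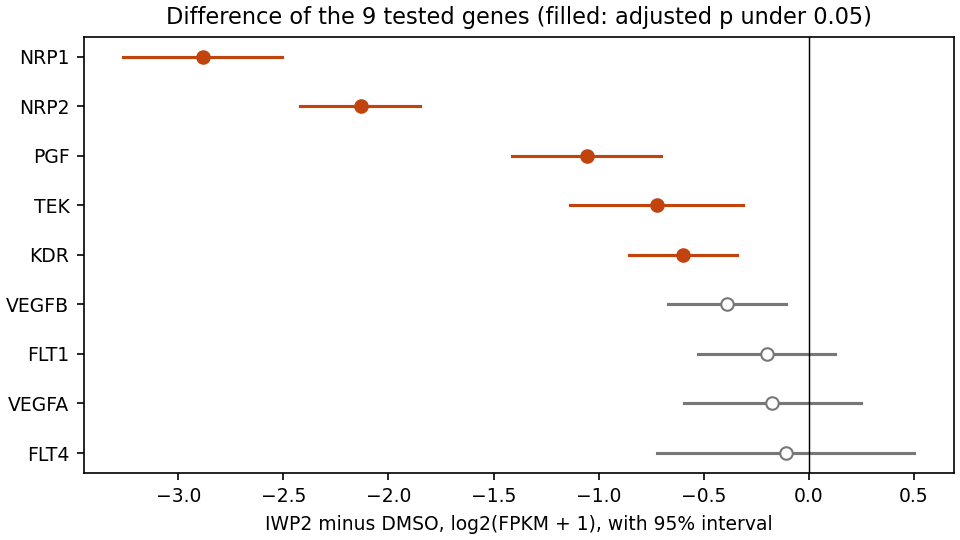
Log2 difference of the 9 tested genes, IWP2 minus DMSO on the log2(FPKM + 1) scale, as points with 95% intervals from limma, filled where the adjusted p was under 0.05. NRP1 and NRP2 lie below -2, PGF near -1, TEK and KDR between -0.8 and -0.5, and the intervals of FLT1, VEGFA and FLT4 cover 0.

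Among the ligands, PGF was called lower, while VEGFA, the main ligand of KDR, was not. PGF (chr14:74941834-74955784), placental growth factor, which binds FLT1 but not KDR, stood at 15.4 and 12.6 FPKM with DMSO and at 6.50 and 5.88 FPKM with IWP2. The groups did not overlap, and the ratio of means was 2.26. On the log2 scale PGF differed by -1.06 (SE 0.139, 95% interval -1.41 to -0.70, limma adjusted p = 0.0118). Without DMSO library 1, DMSO library 2, IWP2 library 1 or IWP2 library 2, its limma adjusted p was 0.0722, 0.0613, 0.128 or 0.145. The call was also lost without a filter (limma adjusted p = 0.0748), so that PGF passed in 7 of 12 alternative fits. Of 8 amnion or trophoblast markers 6 were tested, TFAP2A, KRT7 and GABRP were called higher and CDX2 was called lower, and the list summed to 69.6 and 69.4 FPKM with DMSO and to 82.9 and 89.4 FPKM with IWP2. The hormone subunit genes CGA and CGB5 were under 0.1 FPKM in every library. The part of such cells in the difference of PGF was not tested.

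VEGFA (chr6:43770184-43786487) was measured at 15.7 and 11.5 FPKM with DMSO and at 11.45 and 12.25 FPKM with IWP2. The groups overlapped, and the 2 DMSO libraries differed by more than the group means. For VEGFA the log2 difference came to -0.17 (95% interval -0.59 to 0.25, limma adjusted p = 0.546), and it was 0.03 without DMSO library 1. The interval leaves room for a moderate fall or a slight rise.

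VEGFB (chr11:64234538-64238793), a ligand of FLT1 linked to fatty acid handling, was the most abundant ligand in both groups. It was measured at 22.3 and 21.3 FPKM with DMSO and at 15.2 and 17.6 FPKM with IWP2. The groups did not overlap, but the log2 difference of -0.39 (SE 0.109, 95% interval -0.67 to -0.11) did not pass after adjustment in limma (adjusted p = 0.0853), nor in any of the 12 alternative fits.

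VEGFC (chr4:176683538-176792727), the ligand of FLT4 in lymphatic growth, was close to the limit of the measurement. Its values were 0.145 and 0.272 FPKM with DMSO and 0.263 and 0.331 FPKM with IWP2, and the groups overlapped. In the fit without a filter, over 28917 genes, its log2 difference was 0.10 (95% interval -0.14 to 0.34, limma adjusted p = 0.570).

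The order of the levels changed mainly through the neuropilins. With DMSO the order was NRP2, KDR, VEGFB, NRP1, PGF, VEGFA, FLT1, TEK, FLT4 and VEGFC, and the library ranges overlapped between NRP1 and PGF, between PGF and VEGFA, and between VEGFA and FLT1, so these neighbours were not separated, whereas NRP1 lay above FLT1 in both libraries. With IWP2 the order was KDR, VEGFB, NRP2, VEGFA, FLT1, PGF, FLT4, TEK, NRP1 and VEGFC, with overlapping ranges between VEGFB and NRP2 and between FLT4 and TEK. NRP1 thus went from place 4 to place 9, next to VEGFC.

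Ratios between genes of the same library, which a common scaling factor cannot move, showed unequal changes. NRP2 exceeded NRP1 by 4.36 and 4.98 times in the DMSO libraries and by 12.0 and 14.6 times in the IWP2 libraries. KDR stood at 0.814 and 0.838 of NRP2 with DMSO and at 2.41 and 2.59 of it with IWP2, so that KDR exceeded NRP2 only in the IWP2 libraries. The ratio of KDR to FLT1 was 4.99 and 4.67 with DMSO and 3.79 and 3.57 with IWP2, and that of PGF to VEGFA was 0.981 and 1.09 against 0.568 and 0.481. The ratio of VEGFB to VEGFA overlapped, at 1.42 and 1.84 with DMSO and 1.331 and 1.439 with IWP2. The other 4 ratios did not overlap between the groups, although with 2 libraries against 2 a two-sided exact permutation test cannot give a p below 0.333.

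**Figure D3:**
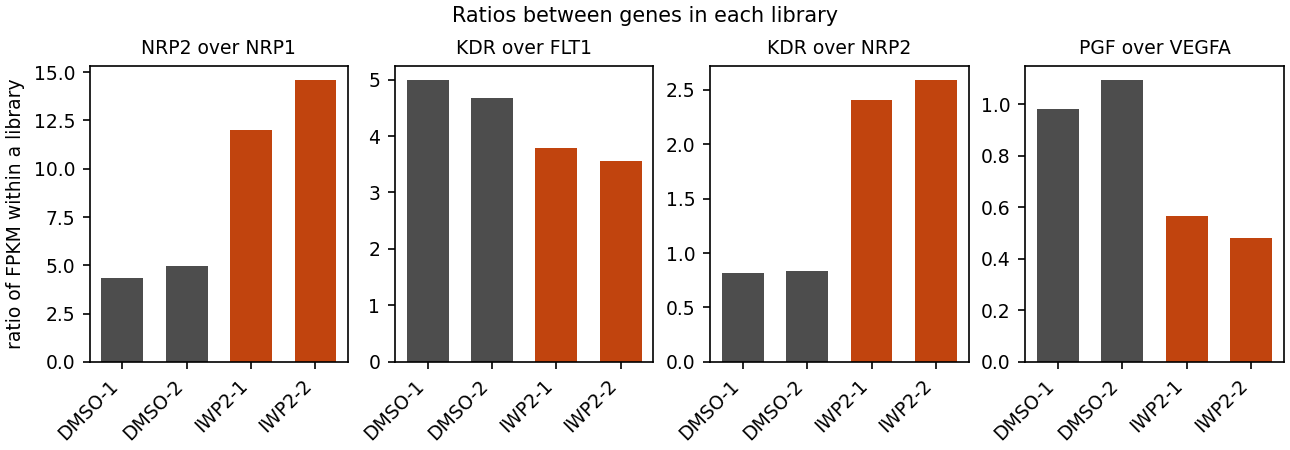
Ratios of FPKM between genes within each of the 4 libraries, as bars from 0, DMSO in grey and IWP2 in orange. NRP2 over NRP1 rises from under 5 to 12.0 and 14.6, KDR over NRP2 passes from under 1 to above 2, and KDR over FLT1 and PGF over VEGFA fall.

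Promoter windows of 300 bases, from 250 before to 50 after a gene's start (RefSeq, GRCh38.p14), were at hand for 7 of the 10 genes: KDR, FLT1, TEK, NRP2, VEGFB, VEGFC and PGF. The bases before the annotated gene are given for KDR, a receptor that was called lower, for FLT1, a receptor that was not called, and for PGF, the ligand called lower. All are written 5′ to 3′ on the minus strand, and capitals mark the letters CTTTGT, a core that TCF/LEF factors of the Wnt pathway bind, or GGGCGG, an SP1 motif, on either strand.
KDR, chr4:55125596-55125845: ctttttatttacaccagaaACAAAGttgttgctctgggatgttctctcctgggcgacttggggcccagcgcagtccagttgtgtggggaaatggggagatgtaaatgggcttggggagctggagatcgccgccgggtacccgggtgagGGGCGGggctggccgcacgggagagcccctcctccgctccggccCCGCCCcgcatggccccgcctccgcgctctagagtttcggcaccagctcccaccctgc
FLT1, chr13:28495146-28495378: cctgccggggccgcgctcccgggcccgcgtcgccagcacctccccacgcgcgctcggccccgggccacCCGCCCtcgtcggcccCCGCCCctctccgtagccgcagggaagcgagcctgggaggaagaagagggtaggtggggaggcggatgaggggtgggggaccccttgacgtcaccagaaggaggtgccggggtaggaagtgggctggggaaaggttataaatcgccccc
PGF, chr14:74955785-74956014: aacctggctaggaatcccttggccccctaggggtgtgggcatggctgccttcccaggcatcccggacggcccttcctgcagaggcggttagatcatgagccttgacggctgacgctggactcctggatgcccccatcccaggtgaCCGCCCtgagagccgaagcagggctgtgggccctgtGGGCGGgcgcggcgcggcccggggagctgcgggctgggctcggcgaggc

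The 7 genes had 9 promoter windows, and a gene was counted if any of its windows held the motif. The shares over all windows count single windows, so the 2 are not in the same unit. CTTTGT was found for KDR, on the opposite strand at position -231 from the start, and for TEK, in its window 2. It was found in 16.1% of all 34943 promoter windows of this length. The other TCF/LEF core searched, CTTTGA, was found in 0 of the 7 genes and in 12.9% of all windows. GGGCGG was found for 6 of the 7 genes, TEK being the exception, and in 44.9% of all windows. The GATA motif AGATAA was found only for TEK among the 7, again in its window 2, against 10.4% of all windows. The hypoxia response core ACGTG, the GATA motif TGATAA and the ETS motif CCGGAA were found for 0 of the 7 genes, against 21.4%, 7.55% and 17.2% of all windows. Both strands were searched, and these motifs were not tested against expression.

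Around the 10 genes, 8 lists of the VEGF and angiopoietin system held 106 further genes, of which 88 were tested, 17 were called lower and 6 higher, with a median log2 difference of -0.16. The 23 calls are 26.1% of the genes tested in these lists, against 13.2% of all genes tested (7.35% lower and 5.81% higher). By list the share called was 12.1% for signaling below the receptors, which is no more than the share over all genes, 25% for neuropilin partners and for ligand processing, 28.6% for regulators of KDR, 33.3% for receptor partners, 35.7% for hypoxia genes, 50% for VEGF response genes and both of 2 genes among the other ligands and angiopoietins, and the lists with few genes tested give only coarse shares. These calls were less stable than those of the neuropilins: without DMSO library 1, DMSO library 2, IWP2 library 1 or IWP2 library 2, the 23 calls became 10, 9, 1 and 1, and PLXNA2 was the gene called in all 4 of these fits. The adjusted p-values below are from limma with all 4 libraries.

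The angiopoietins, ligands of TEK, moved in opposite directions. ANGPT2, which can block TEK, was measured at 2.94 and 3.97 FPKM with DMSO and at 0.0334 and 0.0691 FPKM with IWP2 (log2 difference -2.07, adjusted p = 0.00487). ANGPT1, the activating ligand, rose from 2.50 and 1.20 FPKM to 6.52 and 5.23 FPKM (log2 difference 1.3, adjusted p = 0.0369). Thus the antagonist was above ANGPT1 in both DMSO libraries and far below it in both IWP2 libraries. VEGFD and ANGPT4 were too low to be tested, at no more than 0.217 FPKM.

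Of 13 partners of the neuropilins 12 were tested, 2 were lower and 1 was higher. PLXNA2, a plexin that transmits semaphorin signals with neuropilins, fell from 45.8 and 58.7 FPKM to 2.02 and 1.20 FPKM (log2 difference -4.36, adjusted p = 0.000881), a steeper log2 fall than that of NRP1 itself. The semaphorin SEMA3C fell from 5.39 and 6.18 FPKM to 2.92 and 2.44 FPKM (adjusted p = 0.0237). SEMA3E, which binds PLXND1 directly, rose from 2.999 and 3.998 FPKM to 10.2 and 10.5 FPKM (adjusted p = 0.00819). PLXND1 itself was not called, at 35.3 and 37.4 FPKM with DMSO and 37.5 and 41.2 FPKM with IWP2.

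Of 9 receptor partners 6 were tested. SDC2, a heparan sulfate proteoglycan of the cell surface, rose from 94.96 and 73.0 FPKM to 175.8 and 186.2 FPKM (adjusted p = 0.0107), and the adaptor GRB10 fell from 51.4 and 44.0 FPKM to 26.5 and 27.2 FPKM (adjusted p = 0.0117). Among 33 tested genes of the kinases and second messengers below the receptors, 4 were called lower and 0 higher in limma. At an unadjusted limma p under 0.05, 9 were lower and 4 higher. The 12.1% called do not exceed the 13.2% called over all genes. The 4 genes called were PIK3R1, a regulatory subunit of PI3 kinase, NFATC1, a calcium-regulated transcription factor, and the kinases SRC and AKT1, with log2 differences of -1.53, -1.51, -1.25 and -0.92. The median over the 33 genes was -0.09.

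Of 10 genes that VEGF is known to induce in endothelium, 6 were expressed enough to be tested. In limma 3 of them were called lower and 0 higher (4 lower and 1 higher at an unadjusted p under 0.05). HEY2, a Notch-linked repressor, fell from 10.3 and 11.9 FPKM to 1.77 and 2.01 FPKM (adjusted p = 0.00208). The phosphatase gene DUSP5 fell from 45.8 and 41.8 FPKM to 10.9 and 11.7 FPKM (adjusted p = 0.00106), and the nuclear receptor gene NR4A1 from 12.7 and 13.4 FPKM to 3.998 and 5.45 FPKM (adjusted p = 0.00962). DLL4 and ESM1, 2 genes of endothelial tip cells, were under 0.4 FPKM in every library. All 3 genes that fell also respond to other pathways, and the part of VEGF or of those pathways in their fall was not tested.

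Of 12 transcription factors linked to KDR, 7 were tested. In limma 2 were called lower and 0 higher (4 lower and 0 higher at an unadjusted p under 0.05). FOXC1 fell from 4.49 and 4.96 FPKM to 0.594 and 0.524 FPKM (adjusted p = 0.00359), and HHEX from 2.08 and 2.30 FPKM to 0.269 and 0.376 FPKM (adjusted p = 0.0125). HHEX is also counted among the endoderm markers above. ETV2, the factor that starts the endothelial and blood program, was at 1.56 and 1.28 FPKM with DMSO and 1.01 and 1.07 FPKM with IWP2 and was not called (adjusted p = 0.408). TAL1, FLI1 and ERG, which act later, were under 1 FPKM in every library.

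Hypoxia genes, several of which share control with VEGFA, did not move together. Of 15 genes 14 were tested, 2 were higher and 3 lower, with a median log2 difference of 0.02. ADM, which encodes the vasoactive peptide adrenomedullin, rose from 21.8 and 10.6 FPKM to 72.2 and 79.8 FPKM (adjusted p = 0.0150), and EPAS1, the hypoxia-inducible factor 2 alpha subunit, from 0.997 and 0.970 FPKM to 5.48 and 4.42 FPKM (adjusted p = 0.00628). BNIP3, a mitophagy receptor, and EGLN3, an oxygen-sensing hydroxylase, fell with log2 differences of -0.78 and -0.62 (adjusted p = 0.0162 and 0.0148). HIF1A was not called, at 65.1 and 63.1 FPKM with DMSO and 55.1 and 61.1 FPKM with IWP2.

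Among 9 genes for proteins that cleave or release VEGF ligands, 8 were tested. MMP14, a membrane-bound metalloprotease, fell from 182.6 and 164.7 FPKM to 87.0 and 82.9 FPKM (adjusted p = 0.00409). FURIN, a convertase that processes VEGFC, rose from 41.9 and 36.6 FPKM to 57.3 and 54.8 FPKM (adjusted p = 0.0342). CCBE1, a cofactor needed to activate VEGFC, was too low to be tested, at 0.571 and 0.578 FPKM with DMSO and 0.0291 and 0.0230 FPKM with IWP2.

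**Figure D4:**
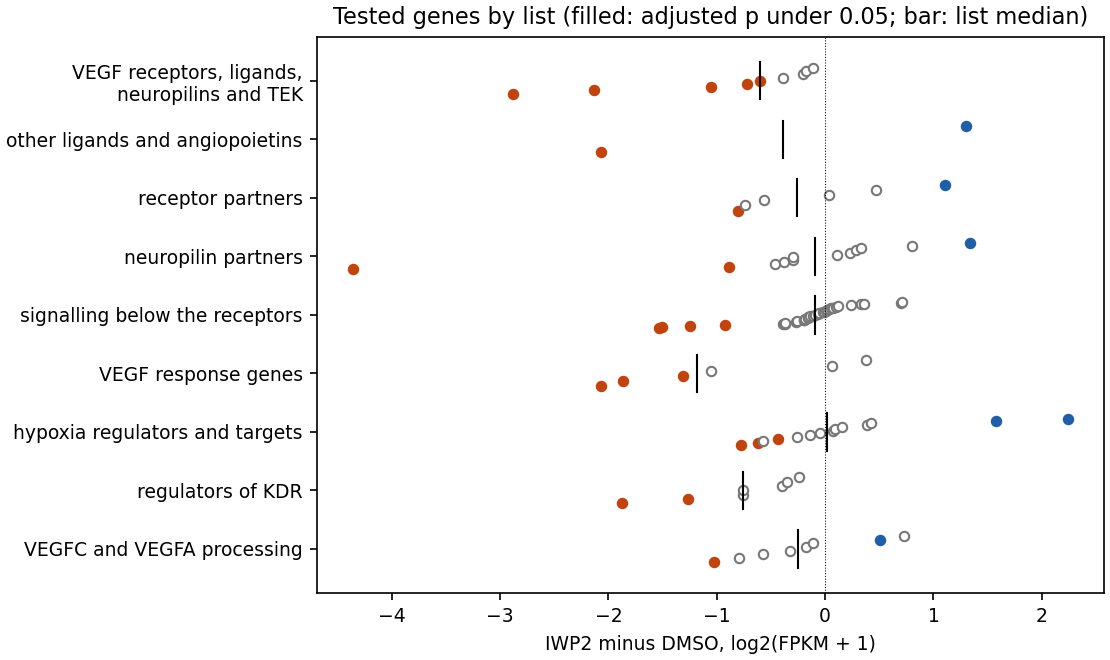
Log2 difference, IWP2 minus DMSO on the log2(FPKM + 1) scale, of each tested gene in the VEGF set (top) and in the 8 further lists, filled orange where called lower and blue where called higher, with a bar at each list's median. The point furthest left is PLXNA2 at -4.36, and the only 2 filled points beyond -2 in the top group are NRP1 and NRP2.

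The genes whose centred log2(FPKM + 1) values over the 4 libraries lay closest to those of KDR were PHLDB2, KIF26A, RHOBTB1, SKP2 and FAM168B, at Euclidean distances of 0.0299 to 0.0558. With 4 libraries this likeness is weak, since 313 genes lay within a distance of 0.2.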

How the data were processed

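Bulk RNA-seq of 4 H1 libraries (2 DMSO, 2 IWP2) was deposited by the authors as 1 table of 58365 Ensembl gene IDs with symbols. The deposited values were read as FPKM made by the authors from mapped reads scaled to gene length and library size: they carry decimals, sum to 616418 to 653850 per library, and low values step in whole multiples. The unit is not named in the labels. The submitters' processing notes name BWA, Bowtie, RSEM and hg19 without roles or versions, but the coordinates are those of GRCh38 with starts counted from 0, and 1 was added to each start. The 2 columns marked as without IWP2 were taken as DMSO, with their own numbers. The labels and the study's methods give the activin A and BMP4 concentrations the other way round, and the labels were followed.

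Counts were not used here, so absolute depth is unknown. From the steps of low values, depth relative to DMSO library 1 was estimated at 0.886 (DMSO 2), 1.10 (IWP2 1) and 0.946 (IWP2 2). Only ratios near 1 were searched, so a larger difference in depth could not have been found. Genes with a mean FPKM of at least 0.5 were tested on log2(FPKM + 1) with limma 3.58.1 in R 4.3.3 (eBayes with a mean-variance trend), two-sided, with Benjamini-Hochberg adjustment over all 15980 genes tested. This fit was also run on simulated data in which spreads were shuffled between genes, so that run did not test the mean-variance trend. The 2 libraries of a group were not copies of each other (correlation over genes 0.975 in DMSO and 0.981 in IWP2). The 12 alternatives were 2 other pseudocounts, 2 other filters, 2 scalings, no trend, a replicate block and leaving out each library.

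The members and gene lists were chosen with earlier results of these data known. All 10 members are named. From each list, up to 4 called genes with the largest log2 difference are named, and PLXND1, ETV2, HIF1A, single cell type markers and the genes too low to be tested were added after their values were seen. Strand use in counting is not given in the sources used here, and rows overlapping a member's span were at or near 0.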

Additional observations from a re-analysis of the deposited data

How the results depend on the processing

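NRP1 and NRP2 were called lower in all 12 alternative fits, with log2 differences from -3.60 to -2.75 and from -2.24 to -2.03. FLT1 and VEGFB kept their negative sign and were called in none. Without a filter on low values (28917 genes), limma called 381 genes (118 higher, 263 lower), 2 VEGF genes and 7 genes of the further lists, and KDR (log2 difference -0.60, adjusted p = 0.0912), PGF (-1.06, 0.0748) and TEK (-0.72, 0.150) were lost. KDR was also lost without a mean-variance trend (-0.60, 0.0524), and TEK with a mean FPKM of at least 2 (-0.72, 0.0565) and median-of-ratios scaling (-0.71, 0.0506).

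Leaving out 1 library gave 94 to 696 called genes (18 to 286 higher, 76 to 410 lower) against 2104, 2 VEGF genes each time, and 1 to 10 list genes against 23. These fits keep 3 libraries, with the lone library of a group assumed to vary like the other group. In them the log2 difference ranged from -0.69 to -0.51 for KDR, -1.19 to -0.92 for PGF, -0.83 to -0.62 for TEK, -0.37 to 0.15 for FLT4 and -0.38 to 0.03 for VEGFA, and all 3 calls were lost each time. The sign of FLT4 turned without DMSO library 1 (0.15) and IWP2 library 2 (0.05), and that of VEGFA without DMSO library 1 (0.034).

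With the number in the column names as a replicate block, 1901 genes were called, and among the VEGF genes only the call of TEK was lost (-0.72, adjusted p = 0.0763). Nothing says that a number marks a shared culture, and the number 1 minus number 2 differences of both groups correlated at 0.142 over genes. The count-based fits listed as an alternative were not run, since no counts were used here. The causes of these changes were not tested. With 2 libraries a group and depth unknown, differences the size of those of FLT1 and VEGFA could not be told from 0.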
